A study of Mus musculus with 10 samples.

Results

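The non-coding probes described here were selected for being higher in brown than in white fat and for rising when brown adipocytes form in culture. A probe was a member when the lower of its 2 brown fat values exceeded the higher of its 2 saline white fat values by at least 1 on the log2 scale, and when its values at days 3, 5 and 7 of differentiation each exceeded day 0 by at least 1. The rule was applied to the log2 value table deposited by the authors and to those of its probes whose name carries the design prefix ASMM9PARTA and a running number. It found 133 members among 15387 such probes, or 0.864%, and among 18997 probes in the whole table. Another 1496 probes met the brown fat criterion alone and 888 met the differentiation criterion alone. The white fat of mice given CL316,243 played no part in the choice of members, and neither did the order of days 3, 5 and 7.

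RNA was hybridised to 10 one-colour Agilent microarrays of an Arraystar design for long non-coding RNAs. All mice were wild type and fed chow, and they received daily intraperitoneal injections for 7 days. Brown and white adipose tissue came from mice given saline (2 arrays each), and white adipose tissue also came from mice given CL316,243 at 1 mg/kg (2 arrays). Brown adipocytes, also labelled wild type, were harvested once each at days 0, 3, 5 and 7 of differentiation. The labels call the tissue replicates biological. The white fat depot, the age of the mice, any pooling of animals and the origin of the cultured cells are not stated in the labels. CL316,243, called CL below, is an agonist of the β3-adrenergic receptor.

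Brown fat burns fatty acids to make heat, and cold or β3-adrenergic stimulation can lead white depots to acquire heat-producing adipocytes, often called beige or brite cells. Long non-coding RNAs are transcripts that are not translated into protein. Some act in the nucleus on the transcription of other genes, and several are known to take part in the formation of brown adipocytes. Precursors of brown adipocytes in culture accumulate lipid and turn on thermogenic genes over the days that follow induction.

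The members can be named by probe only. None of the 133 carried a gene symbol or an accession in the files, so their transcripts, genome positions and sequences are not described here. Whether each member is non-coding could not be checked member by member. Of 118 probes with an accession for a protein-coding transcript, 0 stood in the value table, whereas all 5 probes with an accession for a non-coding transcript did. The tissue labels could be checked against few markers, because 116 probes on the array carry a symbol in the files. Of 10 brown or beige adipocyte markers, Gk was the single one measured, and of 8 white adipocyte markers 0 were. Gk encodes glycerol kinase, which brown fat uses to return glycerol to lipid. The Gk probe stood at 0.59 and 0.80 in brown fat, at -1.79 and -1.67 in saline white fat and at -1.10 and -1.10 in CL white fat, on the scale described next. Its values in the cultured cells were -0.27, -0.84, -0.94 and -0.41 at days 0, 3, 5 and 7, with no rise over day 0. Markers of macrophages, muscle, endothelium, stroma and red cells had 0 measured members. The chemokine probes Ccl21b and Ccl21c of the lymph node list, near-identical gene copies, were measured. Ccl21b stood at 4.26 and 5.58 in brown fat, 7.72 and 7.49 in saline white fat, 6.16 and 7.10 in CL white fat, and between -0.85 and -0.50 in the cells. Ccl21c stood at 4.62 and 5.84, at 7.82 and 7.48, and at 6.16 and 7.29 in the same tissues, and between 1.32 and 1.69 in the cells. The part of lymph node RNA in the tissue differences of the members was not tested. In tissue RNA, fewer cells of a type and less RNA per cell cannot be told apart.

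Values below are log2 scanner signals minus the 75th percentile of the same array, so 0 is the signal of a probe brighter than 75% of the others. On this scale 103 probes met the rule, and 95 of them were members. Probes well above background made up 55.2% to 78.3% of each array. Of the negative control spots, 10.9% (CL array 1) to 36.4% (day 3) were also well above background. Being well above background is thus not by itself proof of a transcript. All 133 members were well above background on both brown fat arrays and at days 3, 5 and 7, and 121 were so on all 10 arrays. ASMM9PARTA010189 was not well above background on either saline white fat array, and neither it nor ASMM9PARTA050812 was on either CL array. At day 0, 6 members were not well above background. The 6 tissue arrays and the 4 cell arrays were on separate slides, so differences between tissue and cells cannot be told apart from the slide. The CL arrays occupied a different row of the slide from the 4 saline arrays, so row and treatment cannot be told apart either.

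As the rule requires, the median member signal was high in brown fat and low in saline white fat and at day 0. It was 3.44 and 3.33 on the brown fat arrays, 0.87 and 0.96 on the saline white fat arrays, and 1.63 and 1.93 on the CL arrays. In the cells it was 0.11 at day 0, 1.98 at day 3, 2.44 at day 5 and 2.67 at day 7. The CL medians, which the rule did not use, lay between those of saline white fat and brown fat. Single members covered a wide range, from -2.75 to 9.91 on brown fat array 1. A probe's signal depends on its sequence as well as on its transcript, so signals of different probes were not ranked against each other as abundance.

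The gap between brown and saline white fat that chose the members ran from 1.01 to 6.41 in the value table, with a median of 1.47. The smallest of the 3 rises over day 0 ran from 1.00 to 4.55, with a median of 1.46. Just inside the tissue threshold lay ASMM9PARTA014579 at 1.01, ASMM9PARTA050345 at 1.02 and ASMM9PARTA016724 at 1.03. Just outside lay ASMM9PARTA019178 at 0.99, ASMM9PARTA015270 at 0.98 and ASMM9PARTA006767 at 0.98. On the differentiation side ASMM9PARTA009356, ASMM9PARTA016563 and ASMM9PARTA014579 were just inside, at 1.00, 1.01 and 1.01, and ASMM9PARTA011070, ASMM9PARTA047486 and ASMM9PARTA009659 just outside, at 0.999, 0.998 and 0.98. The threshold therefore cuts through a continuous range. In limma's fit of all tested probes, 5.53% were called higher in brown than in saline white fat at an adjusted p under 0.05 and 4.87% lower, but that contrast chose the members and is not read further.

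The widest gap between brown and white fat belonged to ASMM9PARTA010189. Its signal was 1.16 and 1.06 in brown fat, -5.03 and -4.60 in saline white fat, and -6.11 and -4.55 in CL white fat. Since neither white fat group measured it above background, brown fat was at least 40.3-fold above saline white fat and at least 26.3-fold above CL white fat. These bounds set the brown fat mean against, on each white fat array, the dimmest signal that counted as well above background or the probe's own signal if higher. They thus rest on that background call, which some negative control spots also pass. Day 7, at -1.88, was at least 4.39-fold above day 0 on the same footing.

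Next came ASMM9PARTA003142, with a value table gap of 4.76. It measured 1.38 and 1.60 in brown fat and -3.73 and -3.02 in saline white fat. In the CL arrays it was -4.05, not well above background, and -2.71. The CL values thus spanned the saline values. In the cells it was not well above background at day 0 and measured -2.62, -1.88 and -0.83 at days 3, 5 and 7. Day 7 was at least 9.12-fold above day 0.

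Of the other 6 members with the widest gaps, ASMM9PARTA015391 and ASMM9PARTA014012 had CL values near those of saline white fat. ASMM9PARTA015391 measured 4.93 and 4.96 in brown fat, 0.38 and 0.41 in saline white fat, and 0.21 and 1.09 in CL white fat. ASMM9PARTA014012 measured 2.45 and 2.93, -1.46 and -1.17, and -1.93 and -1.21 in the same order. In both, the CL arrays overlapped the saline arrays. ASMM9PARTA049324, ASMM9PARTA049063 and ASMM9PARTA047012 had both CL arrays above both saline arrays, and ASMM9PARTA050498 had a CL mean below the saline mean. The 8 members with the widest gaps therefore did not share one CL pattern.

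The members lie in a pair of runs of design numbers, 89 below and 44 above an interval of 24592 probes (19928 to 44519) that the value table does not list. Along the lower run, probes with design numbers 9500 to 13749 are brighter as a group. Of the 3024 value table probes there, 42.8% had a mean signal of at least 3 over the 10 arrays, against 10.7% of the 12363 others. This stretch was picked out after its values were seen. It holds 37 members, 1.22% of its probes, and the other design numbers hold 96, or 0.777%. Among the 37, 29 had a mean signal of at least 3, against 24 of the 96. On the brown fat arrays their median signals were 6.50 and 6.21, against 1.89 and 1.83 for the 96 others. It is the longest run of bins of 250 design numbers in which at least 30% of probes reach that mean. The labels do not say what the numbers stand for. Results are given with and without it where it moves them.

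The timing within differentiation was next described. By day 3 the median member stood 1.65 above day 0, by day 5 it stood 1.62 above and by day 7 it stood 2.04 above, on the log2 scale. The rule fixed that each of these exceeds 1 in the value table, but not how days 3, 5 and 7 compare. From day 3 to day 5 the median difference was 0.05, and from day 5 to day 7 it was 0.39. The latter was 0.18 in the value table and 0.18 under quantile normalization. With 1 array a day no test of these differences was possible, and the spread between cultures is unknown.

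Day 7 was the highest of the later days in 89 members, day 5 in 23 and day 3 in 21. Over all 43525 probes tested, day 7 was highest in 46.7%, as a description of 1 culture series. In the value table itself the split was 74, 28 and 31, or 55.6%, 21.1% and 23.3%. Over its tested probes the shares were 44.5%, 31.4% and 24%. A rise at both steps, day 3 to day 5 and day 5 to day 7, was seen in 54 members against 16.9% of all tested probes. A fall at both was seen in 7 members, against 6185 of the 43525 probes tested. The later days lay within 2-fold of each other in 109 of the 133 members, against 79.3% of all tested probes.

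Between day 3 and day 7, 22 members gained at least 2-fold, against a background of 4.33%, and 2 lost at least 2-fold, against 6.37%. The median difference was 0.39 over members, 0.16 over the 1496 probes that met the brown fat criterion alone, 0.12 over the 888 that met the differentiation criterion alone, and 0.09 over all tested probes. In the value table it was 0.23 over members, 0.11 over the probes of the brown fat criterion alone and 0.09 over all probes, and under quantile normalization it was 0.22 over members. These values share the same day 3 and day 7 arrays. No test of the difference between the sets was made.

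The strongest late gain belonged to ASMM9PARTA050498, which went from -1.72 at day 0 to 0.90, 3.18 and 4.39 at days 3, 5 and 7, or 11.2-fold between days 3 and 7. Its brown fat values were higher still, at 7.05 and 7.09. ASMM9PARTA007296 measured 3.53, 5.95 and 6.51 at days 3, 5 and 7, a 7.89-fold gain from day 3 to day 7. At day 7 it stood above its brown fat values of 6.09 and 5.89.

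The other 3 of the 5 largest gains after day 3 were smaller. ASMM9PARTA046459 measured -2.69, -0.94, -1.79 and 1.12 at days 0, 3, 5 and 7, so its gain lay at the last step, after a dip. ASMM9PARTA044966 measured 1.80, 3.93, 4.97 and 5.98 on the same days, and ASMM9PARTA015274 measured -2.65, -1.79, -0.61 and 0.18. Both of these climbed at every step, by 4.16-fold and 3.94-fold from day 3 to day 7.

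The 2 members that lost at least 2-fold after day 3 were ASMM9PARTA049324 and ASMM9PARTA049063. ASMM9PARTA049324 measured -1.05 at day 0, 3.51 at day 3, 1.78 at day 5 and 2.46 at day 7. ASMM9PARTA049063 measured -4.04, not well above background, then 0.18, -0.89 and -0.86. Both were highest at day 3, and both lay well below brown fat at day 7, by 3.12 and 3.32 on the log2 scale. They were also each other's closest match over all 10 arrays, as given below. ASMM9PARTA046687, ASMM9PARTA050717 and ASMM9PARTA016563 had the next largest drops, to 0.514, 0.557 and 0.675 times their day 3 signal.

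Among the members with the largest average rises over day 0 in the value table, ASMM9PARTA046998 stood on average 4.84 above a day 0 value that was well above background. ASMM9PARTA046998 measured 1.59 at day 0 and 6.77, 6.79 and 6.31 at days 3, 5 and 7, so it had reached its later signal by day 3. ASMM9PARTA046454 was not well above background at day 0, so its rise has only a bound, and it measured -1.77, -0.15 and -0.18 afterwards, with day 7 at least 14.3-fold above day 0. ASMM9PARTA050345 went from -2.04 to 1.42, 1.86 and 1.64, while its gap between brown and white fat was one of the narrowest that the rule admitted. Size of rise and width of tissue gap were thus not the same ordering of members.

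The time course was also described within the bright stretch. The median difference of its members was -0.14 from day 3 to day 5 and 0.58 from day 5 to day 7, and day 7 was highest in 32 of 37. The same medians were 0.14 and 0.22 for the 96 others, where day 7 was highest in 57. In the value table the step from day 5 to day 7 was 0.28 in the stretch and 0.13 outside it, and day 7 was highest in 25 and 49. Over all 3024 value table probes of the stretch, chosen by number alone, the medians were -0.15 and 0.30. A negative median from day 3 to day 5 was thus seen over the stretch as a whole.

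Cells at day 7 were then set beside brown fat. The median difference, day 7 minus mean brown fat, was -0.46 over members, -0.90 over the probes that met the brown fat criterion alone and 0.14 over all tested probes. It was -0.68 in the value table and -0.36 without brown fat replicate 1. Day 7 was at least 2-fold below brown fat in 36 members, against 16.4% of all tested probes, and at least 2-fold above it in 13, against 19.4%. The rule used both the brown fat values and the day 7 values, each required to be high, so these counts are a description.

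ASMM9PARTA004814, chosen here after its values were seen, fell furthest short of brown fat. It measured 5.80 and 5.67 in brown fat and 1.82 at day 7. At the other end ASMM9PARTA018785 measured 4.01 and 4.07 in brown fat but 6.73, 7.01 and 6.97 at days 3, 5 and 7, having been at 3.97 at day 0. Its day 7 value lay 2.93 above the brown fat mean, and its day 0 value was near the brown fat ones.

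In white fat after CL, the study's comparison of treated with untreated tissue, members tended to lie above their saline values. The median difference, mean CL minus mean saline, was 0.58 on the log2 scale, against -0.08 over all tested probes, and the highest member stood at 2.55. The CL mean exceeded the saline mean in 114 members, against 42.1% of all tested probes. It did so by at least 2-fold in 22, against 2.45%, and no member was lower by 2-fold. Both CL arrays lay above both saline arrays in 77 members, against 12.6% of all tested probes, and below both in 2, against 15.4%.

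These counts are a description and not a test, because the rule picked probes for low signals on the same saline arrays. Probes that met the brown fat criterion alone were picked in the same way. Among those 1496 the median difference was 0.43, 721 had both CL arrays above both saline arrays (48.2%, against 57.9% of members) and 100 were at least 2-fold higher. Under normexp those were 0.27 for the median and 50 for the count past 2-fold. Among the 888 probes of the differentiation criterion, which need not be low in white fat, the median was 0.12 and 26.8% had both CL arrays above. The distance from the array at large was thus seen, in part, in probes that shared only the tissue criterion. The difference between those sets was not tested.

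No member passed limma's test of CL against saline white fat, at an adjusted p under 0.05 over 43525 probes, and neither did any other probe, so the background is 0%. At an unadjusted p under 0.05 in limma's test, 25 members were higher, against 1.96% of tested probes, and 0 were lower, against 3.49%. The rule chose low values on the same saline arrays, so these counts too are a description. The smallest adjusted p of a member was 0.454, and over all probes it was 0.172. With another background correction (normexp), 1 member passed, ASMM9PARTA046778 (log2 difference 2.39, limma adjusted p = 0.0494), among 31 calls in all.

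The CL arrays differed from each other more than the arrays of either saline group did. The median absolute difference between replicates, over members, was 0.75 for CL, 0.19 for brown fat and 0.23 for saline white fat, where over all tested probes it was 0.78, 0.29 and 0.32. CL array 1 stood at a median of 0.33 above saline and CL array 2 at 0.78, where all tested probes stood at -0.29 and 0.13. Leaving out CL array 2 thus lowers the members' median from 0.58 to 0.33, and lowers that of all tested probes with it, from -0.08 to -0.29. CL array 2 exceeded CL array 1 in 108 members, against 70.5% of all tested probes, by a median of 0.66 against 0.52. Under quantile normalization the median was 0.24 for members and 0.24 for all tested probes, and in the value table it was 0.24 and 0.35.

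The largest CL difference belonged to ASMM9PARTA046778. It measured -0.04 and 0.48 in saline white fat, 2.32 and 3.23 in CL white fat and 3.84 and 3.42 in brown fat. CL and saline did not overlap, and the CL mean was 5.87-fold above the saline mean. The log2 difference was 2.55 ± 0.44 (limma's moderated SE, n = 2 per group), with a limma adjusted p of 0.454. This SE, also used below, pools the spread of all tissue groups and is moderated over all tested probes, so it is not the spread of these arrays alone. In the cells ASMM9PARTA046778 went from -0.15 at day 0 to 3.72, 4.04 and 4.24, so it was also among the members with the largest rise.

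ASMM9PARTA051465 had a similar tissue pattern and a lower starting signal in the cells. It measured 0.47 and 1.19 in saline white fat, 3.51 and 2.97 in CL white fat and 3.70 and 3.60 in brown fat. The CL difference was 5.33-fold (log2 2.41 ± 0.41, limma's moderated SE, n = 2 per group, limma adjusted p = 0.454), and CL array 1 was here the higher one. The cells went from -3.22 at day 0 to 1.04, 1.29 and 1.44, and stayed 2.21 below brown fat at day 7.

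In ASMM9PARTA049324 the CL values lay between saline and brown fat. Its signals were 0.80 and 0.94 with saline, 2.38 and 3.07 with CL and 5.43 and 5.73 in brown fat. The CL mean was 3.60-fold above saline (limma adjusted p = 0.487) and 2.86 below brown fat on the log2 scale. ASMM9PARTA019250, at -0.39 and -0.20 with saline, measured 1.32 and 1.54 with CL, close to its brown fat values of 1.57 and 1.66. Its replicates lay close together in all 3 tissue groups, and its difference of 1.73 ± 0.34 (limma's moderated SE, n = 2 per group) had a limma adjusted p of 0.459.

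ASMM9PARTA050100 measured 0.46 and 1.11 with saline and 2.21 and 2.63 with CL, against 3.49 and 3.52 in brown fat. ASMM9PARTA047012 measured -0.12 and 0.46 with saline, 1.33 and 2.18 with CL, and 3.82 and 4.27 in brown fat. In both, CL was about 3-fold above saline (3.12-fold and 3.00-fold), with both CL arrays above both saline arrays and below both brown fat arrays. ASMM9PARTA045708 measured -1.64 and -1.42 with saline, -0.52 and 0.72 with CL, and 1.88 and 0.28 in brown fat. There CL and brown fat overlapped, and the brown fat replicates were themselves more than 2-fold apart.

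In ASMM9PARTA001701 the CL mean was at its brown fat mean, with a difference of 0.02. It measured 2.92 and 3.23 with saline, 4.08 and 4.81 with CL, and 4.51 and 4.35 in brown fat. In the cells it stayed at 2.85 and 3.16 at days 3 and 5 and was 4.46 at day 7, from 1.66 at day 0. CL arrays, brown fat arrays and day 7 thus lay within the same range. No member's CL mean reached brown fat in the value table or under quantile normalization, where the highest difference over members was -0.065 and -0.067.

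Lower values after CL were few and small. ASMM9PARTA050812 measured -3.76 and -3.49 with saline and -4.57 and -4.22 with CL, neither of the latter well above background. ASMM9PARTA051653, the other member with both CL arrays below both saline arrays, measured -1.30 and -1.16 with saline and -1.69 and -1.39 with CL. The members ASMM9PARTA010216, ASMM9PARTA003809 and ASMM9PARTA050498 had CL means 0.57, 0.42 and 0.48 below saline, but in each the CL arrays were over 2-fold apart, and in ASMM9PARTA010216 and ASMM9PARTA003809 CL array 1 was not well above background. The sign turned for ASMM9PARTA003809 and ASMM9PARTA050498 when CL array 1 was left out, to 0.47 and 0.05. None of these 5 passed the test.

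Some members depended on 1 CL array. CL array 2 lay above CL array 1 by 1.53 in ASMM9PARTA004912, and in ASMM9PARTA003795 and ASMM9PARTA002381 by at least 1.42. CL array 1 was at least 2-fold above CL array 2 in 5 members, against 12.2% of all tested probes. In ASMM9PARTA050717 CL array 1 was at -0.50 and CL array 2 at -2.55, against -1.71 and -1.99 with saline. ASMM9PARTA009697 measured 4.58 and 2.74 with CL, against 2.78 and 2.44 with saline. Its 2.07-fold mean difference came with CL array 2 inside the saline range, and it was the one member of the 22 past 2-fold whose CL and saline arrays overlapped. ASMM9PARTA018785, ASMM9PARTA044947 and ASMM9PARTA004557 had CL array 1 higher by 1.69, 1.70 and 1.29, and in ASMM9PARTA004557 CL array 2 was not well above background. In all, the CL arrays were at least 2-fold apart in 38 members (28.6%), against 35% of all tested probes. The brown fat arrays were so in 2 (1.5%), against 8.85%, and the saline white fat arrays in 0, against 4.41%. In the value table the CL arrays were so in 25 members (18.8%), against 18.9% of its probes. Under normexp they were so in 18 of the 133 members, against 19.8%. The share was thus no higher in members than over all probes.

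Within the bright stretch 28 of 37 members had both CL arrays above both saline arrays, and elsewhere 49 of 96. The median CL difference was 0.77 in the stretch and 0.55 outside it. Of the 22 members past 2-fold, 6 lay in the stretch, which holds 37 of the 133 members, and of the 8 with the largest difference 0 did. Over the 3024 value table probes of the stretch, members or not, 12.5% had both CL arrays above.

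CL white fat lay below brown fat for nearly all members. The median difference was -1.21, against -1.26 over the probes that met the brown fat criterion alone and -0.03 over all tested probes, and it was -1.58 without CL array 2. Both CL arrays lay below both brown fat arrays in 125 members, against 26.8% of all tested probes. The CL mean came at least midway from saline to brown fat in 22 members, and in 178 of the 1496 probes that met the brown fat criterion alone. Limma called 28 members lower in CL white fat than in brown fat, against 1.51% of tested probes, and 0 higher, against 1.99%. The rule chose high brown fat values on the same arrays, so this count is a description.

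The count of 28 rested on few arrays. It moved widely when single arrays were left out, and so did the calls over all tested probes. Such a fit takes no spread from the group left with 1 array, so its counts are not given. The members' median of CL minus brown fat was -1.12 without brown fat array 1 and -1.28 without brown fat array 2. It was -0.99 without CL array 1 and -1.58 without CL array 2. The value table gave 51 members against 4.44% of its probes, and a fit with no filter on dim probes gave 13 against 0.412%. Among the 28, 4 lay in the bright stretch. The 28 include ASMM9PARTA010189, for which a bound is given above, and ASMM9PARTA003142, measured on 1 of the 2 CL arrays. ASMM9PARTA015391 and ASMM9PARTA014012 lay 4.30 and 4.26 below brown fat on the log2 scale, as a description, since brown fat chose them. These were also members with wide gaps between brown and saline white fat. ASMM9PARTA049324 and ASMM9PARTA047012 were called as well, although both were at least 3-fold higher with CL than with saline.

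Members were last compared with each other over the 10 arrays. After each was centred on its own mean, 58 members had at least 1 other member within a root mean square difference of 0.25 on the log2 scale. This held for 29 of the 37 in the bright stretch and for 29 of the 96 others. Since all members were chosen for a shared outline, likeness is partly fixed by the rule, and no test was made.

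The closest pair was ASMM9PARTA009356 and ASMM9PARTA012316, at 0.07. ASMM9PARTA009356 measured 8.36 and 8.39 in brown fat, 6.77 and 6.84 with saline, 6.96 and 7.76 with CL, and 6.63, 7.46, 7.71 and 8.28 at days 0, 3, 5 and 7. ASMM9PARTA012316 measured 8.26 and 8.15, 6.52 and 6.56, 6.68 and 7.52, and 6.43, 7.41, 7.49 and 8.01 in the same order. The pair moved together, with a shared offset between the CL arrays. An offset in the same direction was seen over all tested probes, at a median of 0.52.

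ASMM9PARTA011778 and ASMM9PARTA013124 followed at 0.08, and ASMM9PARTA010575 with ASMM9PARTA011757 and ASMM9PARTA010532 with ASMM9PARTA013483 at 0.09 each. All of these lie in the bright stretch except ASMM9PARTA009356, whose number falls just before it. ASMM9PARTA010532 had 24 other members within the limit. Whether such probes measure the same transcript could not be told from the files, and the members were not counted as independent observations.

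ASMM9PARTA049324 and ASMM9PARTA049063, the pair highest at day 3, were nearest to each other at 0.31. By contrast, members with directly consecutive design numbers were not each other's nearest match. ASMM9PARTA001513 measured -0.07 and -0.15 in brown fat and -1.82 and -1.60 with saline, and -0.97 and -0.60 with CL, without overlap. Its neighbour ASMM9PARTA001514 measured -0.11 and 0.37 in brown fat and -3.01 and -3.22 with saline, and its CL values of -3.03 and -2.33 overlapped the saline ones. ASMM9PARTA004912 and ASMM9PARTA004913 had near equal saline values but differed in the cells, where day 0 was 0.93 in the first and 2.75 in the second.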

How the data were processed

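Scanner files of 10 arrays were read. Per the file headers, they hold Agilent Feature Extraction 11.0.1.1 output with intensity columns and background flags (genome build mm9). The submitters' processing notes name version 9.1. The deposited value table holds log2 values; about 97% of each column's values recur in another column, and its medians run from 7.15 to 7.45. The exact normalization is not given in the sources used here. Every column was matched to a sample.

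Members were chosen on the value table; values and tests used log2 of the processed intensity, as deposited, minus each array's 75th percentile. The members, lists and rules were chosen with earlier results of these data known. A probe entered the test when 1 or more tissue groups had it well above background on both arrays (43525 of 59709); these were fitted with limma 3.58.1 in R 4.3.3, using group means over the 6 tissue arrays (3 residual degrees of freedom), and p-values were adjusted by Benjamini-Hochberg at 0.05. The fit was tested on simulated data. The simulated spreads came from the brown fat and saline white fat arrays, so the simulation does not cover the wider CL spread. The precision of the fit is limited by 2 arrays a group.

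Members named were the 8 with the widest tissue gap, the 8 with the largest rise, the 8 highest and 5 lowest for CL minus saline, the 5 at either end of day 7 minus day 3 and of the CL replicate difference, consecutive numbers and those at the thresholds; ASMM9PARTA004814, ASMM9PARTA051653 and the look-alike pairs were named after their values were seen. Alternatives were quantile normalization, normexp (offset 50, on median signals), the value table, other filters and thresholds, a replicate block and leaving out arrays. Marker lists (11, with 74 entries) had 4 entries measured: Gk in 2 lists, Ccl21b and Ccl21c.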

Additional observations from a re-analysis of the deposited data

How the results depend on the processing

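The number of members was 133 with the rule as given, 103 on scanner values, 130 under quantile normalization, 79 under normexp, 35 with a threshold of 1.5 and 220 with a threshold of 0.8. Members called between CL and saline white fat numbered 0 in all alternatives run except normexp, which called 1 (ASMM9PARTA046778, log2 difference 2.39, limma adjusted p = 0.0494). Members called between CL white fat and brown fat numbered 28, with 1.51% of tested probes called lower. The value table gave 51 (4.44%), and a fit with no filter gave 13 (0.412%). A fit that leaves out an array takes no spread from the group left with 1 array, so its counts are not given. A replicate block in limma called 0 and 36 members in these comparisons, the latter against 2% of tested probes called lower. The labels share replicate numbers only. Deviations of same-numbered arrays correlated at 0.50 between saline and CL white fat, the groups of the CL comparison. They correlated at -0.02 between brown fat and saline white fat, and at -0.08 between brown fat and CL white fat. The main fit had no replicate block. The median CL minus brown fat difference ran from -1.58 to -0.99 when single arrays were left out. Without the members of the bright stretch of design numbers, a choice made after seeing the data, 49 members had both CL arrays above both saline arrays. The median difference between the CL arrays, 0.66, was 0.24 both under quantile normalization and in the value table. About 97% of the values of each value table column recur in another column. The value table is thus not a separate check on quantile normalization. The median of day 7 minus brown fat, -0.46, was -0.68 under quantile normalization, -0.31 under normexp, -0.68 in the value table, and -0.49 to -0.36 when single brown fat arrays were left out. From day 5 to day 7 the median, 0.39, was 0.18 under quantile normalization and 0.18 in the value table, and from day 3 to day 7, 0.39, it was 0.22 and 0.23. Members with CL arrays 2-fold apart numbered 38, 18 under normexp and 25 in the value table. These 3 comparisons of settings were chosen after seeing the data. The causes were not tested, beyond the smaller number of arrays or other set of probes that each alternative has by construction.

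Among named members the sign of CL minus saline turned for ASMM9PARTA003142 (0.23 under quantile normalization, 0.022 under normexp, 0.24 in the value table), which was measured on 1 of 2 CL arrays. Leaving out single arrays gave -0.68 to 0.66 for ASMM9PARTA003142, -1.32 to 0.47 for ASMM9PARTA003809, -0.018 to 1.32 for ASMM9PARTA004913, -0.61 to 0.10 for ASMM9PARTA014012, -0.19 to 0.70 for ASMM9PARTA015391, -0.29 to 0.96 for ASMM9PARTA046998, -0.68 to 0.66 for ASMM9PARTA050345 and -1.02 to 0.051 for ASMM9PARTA050498. None of these 8 was called in the comparison under any alternative run. For ASMM9PARTA050717, also not called, the sign turned as well when CL array 1 was left out, since CL array 2 lay below both saline arrays. ASMM9PARTA010189, not well above background in saline or CL white fat, has no such CL minus saline difference. Signal over background limits the dimmest members, 12 of which were not well above background on at least 1 array.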
